A study of Homo sapiens with 6 samples.

Results

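GDF15 and 9 other secreted ligand or ligand-processing genes of the TGF-beta superfamily were followed in Huh7 cells, an established human hepatocellular carcinoma line, with and without knockdown of versican. The members were the rows of the deposited expression table with the symbols GDF15, TGFB1, TGFB2, TGFB3, BMP1, BMP2, BMP4, INHBA, INHBB and INHBE, which is 10 of 23344 rows, and each symbol had a single row. The sh2 cells had received a VersicanV1 knockdown lentivirus, under a name that stands for a single hairpin, and the shNC cells a control lentivirus. Each group had 3 RNA libraries. Nothing in the labels ties a library to a culture of its own, so the spread between libraries, which each p-value rests on, may be technical. The members were chosen by the difference between sh2 and shNC, in which GDF15 stood out, so their values in that comparison are given as a description, with no p-value, and nothing is read from whether a member passed. The table has 1 row for each gene, so isoforms of versican and of the members could not be told apart.

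Ligands of this superfamily are made as precursors that are cut by furin-like convertases and secreted as dimers. The dimers bind pairs of type I and type II serine/threonine kinase receptors, which phosphorylate SMAD2 and SMAD3 (TGF-beta and activin) or SMAD1, SMAD5 and SMAD9 (BMP). GDF15 is a distant member: it signals through GFRAL and RET in the hindbrain, is induced in liver and tumour cells by cell stress, and is used as a serum marker. BMP1 carries the name of the family but is an astacin metalloprotease that matures procollagens and frees BMPs from their antagonist chordin, so by function it is no ligand of the family.

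The values are the authors' and were treated as FPKM, which are per transcript length, although the table does not name its unit. VCAN, which encodes versican and was the target, was at 1.90, 1.74 and 1.64 FPKM in sh2 replicates 1, 2 and 3, against 4.79, 6.24 and 8.10 FPKM in shNC replicates 1, 2 and 3 (log2 fold change -1.39, SE 0.19, limma adjusted p = 0.0103; 0.0537 without shNC replicate 2). Depth, estimated from the steps between low values, was between 0.818 and 1 of that of the deepest library. Of 9 hepatoma markers, each with a row, 1 rose and 1 fell, while over all genes tested 4.15% rose and 3.94% fell. TTR, the transthyretin gene, was at 9.97 to 12.7 FPKM in sh2 and 23.6 to 30.0 FPKM in shNC libraries (log2 fold change -1.19, limma adjusted p = 0.0077), and APOA1 at 112 to 150 FPKM and 45.4 to 87.6 FPKM (1.05, adjusted p = 0.0325). The other 7 did not pass, and of these ALB was at 3426 to 4006 FPKM in sh2 and 3128 to 3579 FPKM in shNC libraries, and AFP at 1124 to 1761 FPKM and 1057 to 1580 FPKM. Mitochondrially encoded genes held 23.8 to 31.2% of the summed values in sh2 and 16.0 to 19.2% in shNC libraries. Sh2 replicate 1 stood apart from the other sh2 libraries: its correlation over all genes (Pearson's r of log2 values) was 0.985 with shNC replicate 1 and 0.983 and 0.982 with sh2 replicates 2 and 3, which had 0.989 with each other. Sh2 replicate 2 held blood cell transcripts. The 12 blood cell markers with a row summed to 218 FPKM in sh2 replicate 2, 111 FPKM in sh2 replicates 1 and 3 and 79.0 to 93.7 FPKM in shNC libraries. S100A8 was at 17.9 FPKM in sh2 replicate 2 and listed at 0 in each other library. Part of the sum is not particular to that library, as LYZ and CD14 were present in all. LYZ was at 37.8 to 68.2 FPKM in sh2 and 18.3 to 24.8 FPKM in shNC libraries (limma adjusted p = 0.0277). CD68 was highest in shNC replicate 3, at 2.19 FPKM. In bulk RNA, fewer cells that use a gene and less RNA of it per cell cannot be told apart.

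GDF15 took up a much larger part of the summed level of the 10 genes in sh2 than in shNC cells. The 10 genes summed to 600, 509 and 533 FPKM in sh2 replicates 1, 2 and 3, against 339, 333 and 315 FPKM in shNC replicates 1, 2 and 3. GDF15 made up 48.1, 26.2 and 28.2% of that sum in the sh2 libraries and 8.34, 8.14 and 8.00% in the shNC libraries. Without GDF15 the other 9 genes summed to 311, 376 and 383 FPKM in sh2 and 311, 306 and 290 FPKM in shNC libraries. In sh2 cells the order of the mean levels was GDF15, BMP2, INHBE, BMP4, INHBB, TGFB2, BMP1, TGFB1, INHBA and TGFB3. Of these neighbours, GDF15 and BMP2, INHBE and BMP4, INHBB and TGFB2, and BMP1 and TGFB1 overlapped in their ranges over 3 libraries. In shNC cells the order was BMP2, BMP4, INHBE, GDF15, INHBB, TGFB2, TGFB1, BMP1, INHBA and TGFB3, and there TGFB2 overlapped with TGFB1, and TGFB1 with BMP1. GDF15 was thus the fourth of the 10 genes in shNC cells and the first by its mean in sh2 cells.

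**Figure D1:**
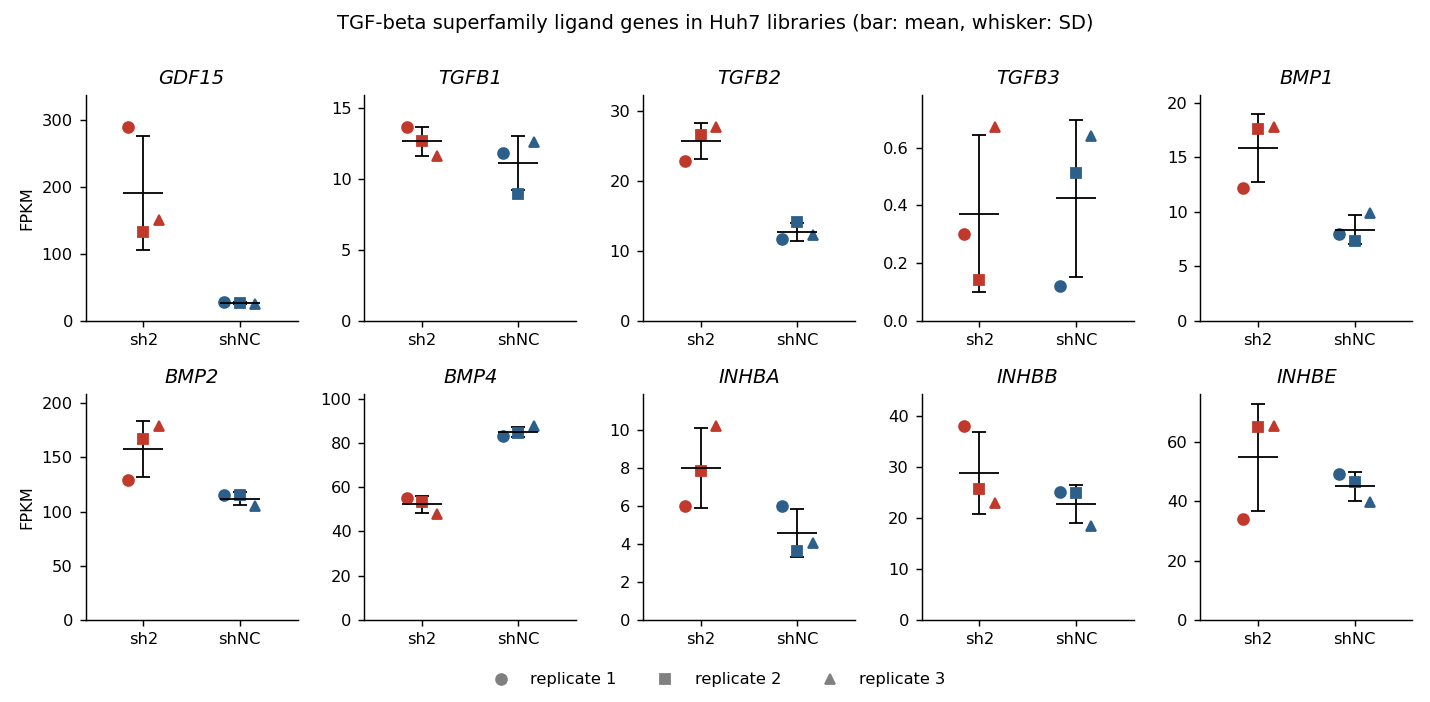
FPKM of the 10 genes in the 3 sh2 libraries (red, left) and the 3 shNC libraries (blue, right), with the mean (bar) and SD (whisker) of each group and the marker shape giving the replicate number. GDF15, TGFB2, BMP1 and BMP2 lie above the shNC libraries in each sh2 library, BMP4 lies below, and the other 5 genes overlap.

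The sequences before the transcription start of GDF15, TGFB2 and TGFB1 are shown because GDF15 and TGFB2 had the largest differences among the members, while TGFB1, the close relative of TGFB2, overlapped between groups. They are from RefSeq on GRCh38.p14, in the direction of transcription, and cover the 250 bases that end just before the start. The windows are chr19:18385908-18386157 on the plus strand (GDF15), chr1:218345086-218345335 on the plus strand (TGFB2) and chr19:41353923-41354172 on the minus strand (TGFB1). Capitals mark a core promoter motif, the TATA box (letters TATAAA), and the GC box, spelled GGGCGG, on either strand.
GDF15: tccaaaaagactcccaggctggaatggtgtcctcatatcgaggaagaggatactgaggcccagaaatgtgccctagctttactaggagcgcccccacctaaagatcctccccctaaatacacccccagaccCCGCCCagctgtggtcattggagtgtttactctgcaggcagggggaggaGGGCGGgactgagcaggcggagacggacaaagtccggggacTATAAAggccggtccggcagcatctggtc
TGFB2: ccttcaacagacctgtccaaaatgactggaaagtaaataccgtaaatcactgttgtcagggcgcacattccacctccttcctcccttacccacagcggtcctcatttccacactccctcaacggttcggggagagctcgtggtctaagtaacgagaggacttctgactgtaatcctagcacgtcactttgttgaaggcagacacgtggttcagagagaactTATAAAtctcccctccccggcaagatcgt
TGFB1: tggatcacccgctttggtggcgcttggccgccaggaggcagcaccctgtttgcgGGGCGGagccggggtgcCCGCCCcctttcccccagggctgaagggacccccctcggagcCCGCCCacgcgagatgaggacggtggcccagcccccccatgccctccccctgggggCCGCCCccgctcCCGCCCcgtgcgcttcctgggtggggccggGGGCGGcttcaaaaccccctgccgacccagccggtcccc
GDF15 and TGFB2 both hold TATAAA from base -29 to base -24, counted back from the start, and TGFB1 holds no TATAAA. GDF15 also holds GGGCGG at 2 places and TGFB1 at 6 places before the start, while TGFB2 holds none. Promoter windows were found for 7 of the 10 genes (BMP1, BMP2 and INHBE had no entry), with 10 windows in all, as some had several starts. The counts below are of genes with a match in any window, while the shares are of single windows. TATAAA was in a window of 4 of the 7 genes (GDF15, TGFB2, TGFB3 and INHBA) and in 11.5% of all 35116 promoter windows of 300 bases. In INHBA it lay from base -11 to base -6, nearer to the start than in GDF15 and TGFB2. GGGCGG was in 4 of the 7 (GDF15, TGFB1, BMP4 and INHBB) and in 45% of all windows. The letters TGATGNAA (composite site of ATF4 and C/EBP), TGANTCA (AP-1) and TGACGTCA (cyclic AMP response element), searched on both strands, were in no window of the 7 genes and in 3.62, 7.71 and 1.85% of all windows. A motif of NF-kB was in a window of INHBB alone among the 7 genes and in 5.68% of all windows. Such a match is a run of letters and does not show that a factor binds there.

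GDF15 (ENSG00000130513) was at 289, 133 and 150 FPKM in sh2 replicates 1, 2 and 3, against 28.3, 27.1 and 25.2 FPKM in shNC replicates 1, 2 and 3. Each sh2 library lay far above each shNC library, and sh2 replicate 1 was the highest. The mean was 191 ± 85.4 FPKM in sh2 and 26.9 ± 1.53 FPKM in shNC cells (SD, n = 3 each), a ratio of 7.10. The difference of log2(FPKM + 1) was 2.70 (SE 0.26), which placed the gene at rank 3 from the top among 13696 genes tested. It was 2.36 without sh2 replicate 1, 2.91 without sh2 replicate 2, which held the blood cell transcripts, and 2.80 when the libraries were rescaled to their totals without mitochondrially encoded genes. By mean level, the gene ranked 538 among the genes tested in sh2 and 3816 in shNC cells. The shNC libraries were close together (coefficient of variation 5.71%), while the sh2 libraries spread widely (44.8%).

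The 3 TGF-beta isoform genes, whose products signal through TGFBR2 and TGFBR1, differed from each other. TGFB2 (ENSG00000092969) was at 22.9, 26.7 and 27.7 FPKM in sh2 replicates 1, 2 and 3, against 11.7, 14.1 and 12.2 FPKM in shNC replicates 1, 2 and 3. The groups were apart, and the mean of 25.7 ± 2.54 FPKM in sh2 was 2.03 times that of 12.7 ± 1.25 FPKM in shNC cells (SD, n = 3 each; log2 difference 0.97, SE 0.13). TGFB1 (ENSG00000105329), the isoform best known from fibrotic liver, was at 13.7, 12.7 and 11.6 FPKM in sh2 and 11.8, 8.96 and 12.6 FPKM in shNC libraries, which overlap (log2 difference 0.18, SE 0.15). Exons of TGFB1 overlap those of HNRNPUL1 on the opposite strand, which was at 94.5 to 119 FPKM in sh2 and 122 to 138 FPKM in shNC libraries, and no source used here says whether strand was used in the counting, so some reads of one gene may be counted for the other. TGFB3 (ENSG00000119699) was between 0.14 and 0.67 FPKM in sh2 and between 0.12 and 0.64 FPKM in shNC libraries. This is about 4.9 to 25.9 fragments and 4.4 to 22.9 fragments per library if all came from its longest annotated transcript of 2708 bases. The groups overlapped, TGFB3 was not tested, and a small difference could not be seen at this depth. The ratio of TGFB2 to TGFB1 within a library was 1.67, 2.10 and 2.38 in sh2 and 0.991, 1.57 and 0.969 in shNC libraries. The levels of both isoforms were thus near each other in shNC replicates 1 and 3, and TGFB2 was the higher in each sh2 library.

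BMP2 and BMP4, close relatives that bind the same BMP receptors, differed in opposite directions. BMP2 (ENSG00000125845) was at 129, 166 and 179 FPKM in sh2 replicates 1, 2 and 3, against 115, 116 and 105 FPKM in shNC replicates 1, 2 and 3. Sh2 replicate 1 was closer to the shNC libraries than to the other sh2 libraries, and the log2 difference was 0.48 (SE 0.14), or 0.62 without that library. BMP4 (ENSG00000125378) was at 55.3, 53.3 and 48.0 FPKM in sh2 and 83.3, 84.5 and 87.5 FPKM in shNC libraries. It was the only one of the 9 tested members with a lower mean in sh2 cells (52.2 ± 3.75 FPKM against 85.1 ± 2.17 FPKM, SD, n = 3 each; log2 difference -0.70, SE 0.11), with shNC at 1.63 times the sh2 level. After the rescaling without mitochondrially encoded genes its log2 difference was -0.59. The ratio of BMP2 to BMP4 was 2.33, 3.13 and 3.72 in sh2 replicates 1, 2 and 3, and 1.38, 1.37 and 1.20 in shNC replicates 1, 2 and 3. A ratio within a library does not depend on how libraries are scaled. The lowest sh2 ratio exceeded the highest shNC ratio. This had to follow, since the groups of both genes were apart as deposited, in opposite directions.

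BMP1 (ENSG00000168487), the procollagen protease, was at 12.2, 17.6 and 17.8 FPKM in sh2 replicates 1, 2 and 3, against 7.98, 7.28 and 9.85 FPKM in shNC replicates 1, 2 and 3. The sh2 libraries lay above, with replicate 1 again nearest to shNC, and the means were 15.8 ± 3.15 FPKM and 8.37 ± 1.33 FPKM (SD, n = 3 each; log2 difference 0.84, SE 0.18). Without sh2 replicate 1 the difference was 1.00.

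The inhibin beta subunit genes encode the chains of the activins. INHBE (ENSG00000139269), whose product activin E is made mainly by hepatocytes, was at 34.1, 65.1 and 65.3 FPKM in sh2 replicates 1, 2 and 3, against 49.2, 46.5 and 39.7 FPKM in shNC replicates 1, 2 and 3. Sh2 replicate 1 lay below each shNC library and the other sh2 libraries above, so the groups overlapped (log2 difference 0.22, SE 0.24; 0.53 without sh2 replicate 1). INHBB (ENSG00000163083), the activin B subunit, had the opposite order within sh2, with 38.0, 25.8 and 22.9 FPKM in sh2 and 25.2, 24.8 and 18.5 FPKM in shNC libraries (log2 difference 0.31, SE 0.20; 0.10 without sh2 replicate 1). The ratio of INHBE to INHBB was 0.897 in sh2 replicate 1, against 2.52 and 2.85 in sh2 replicates 2 and 3 and 1.87 to 2.14 in shNC libraries. INHBA (ENSG00000122641), the activin A subunit, was at 5.99, 7.84 and 10.2 FPKM in sh2 and 6.01, 3.61 and 4.05 FPKM in shNC libraries. Its groups overlapped through sh2 replicate 1 and shNC replicate 1 alone (log2 difference 0.69, SE 0.22).

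**Figure D2:**
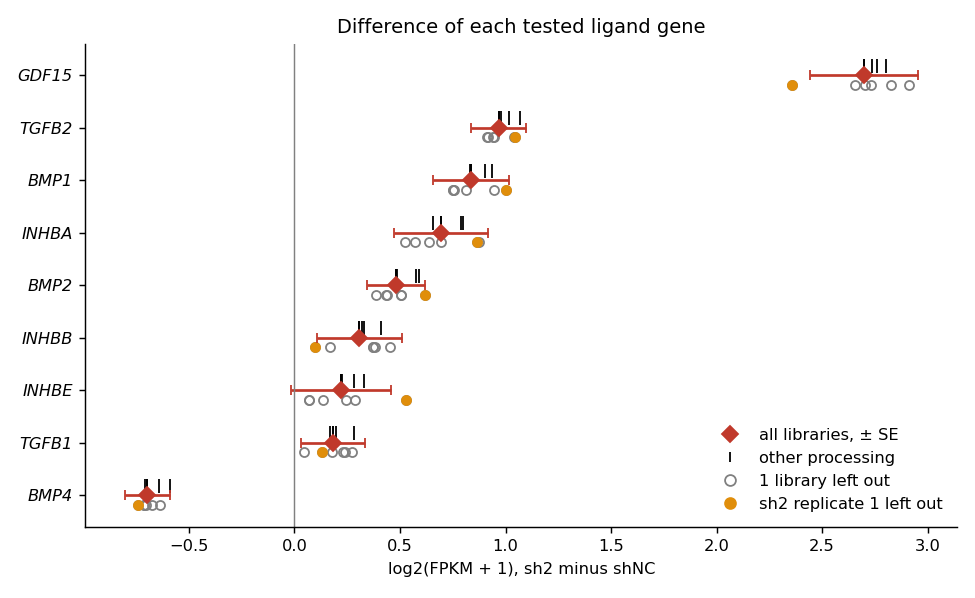
Difference of log2(FPKM + 1), sh2 minus shNC, for the 9 members tested: all libraries with SE (red diamond), other processing (black tick), each library left out in turn (open circle) and sh2 replicate 1 left out (orange). Without sh2 replicate 1 GDF15 is at 2.36, against 2.70 with all libraries, and INHBE at 0.53, against 0.22.

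In the limma fit across all genes, 4 of the 9 members tested passed an adjusted p of 0.05, with GDF15, TGFB2 and BMP1 higher and BMP4 lower in sh2 libraries; over all genes tested 4.15% passed as higher and 3.94% as lower (8.08% in all). That split depends on the scaling: it was 568 higher and 539 lower as deposited, and 680 higher and 223 lower after the rescaling without mitochondrially encoded genes. Groups did not overlap for 5 of the 9 members, 4 above and 1 below, while over all genes tested the share was 33.1%, with 14.4% above and 18.7% below. Since the members were chosen with this comparison in view, nothing is read from these counts. TGFB3 did not reach 1 FPKM in any library and was not tested. The number that passed was 7, 2 and 3 without sh2 replicates 1, 2 and 3, and 3, 2 and 2 without shNC replicates 1, 2 and 3. Over all genes tested, 3284 of 13408, 111 of 13371 and 194 of 13359 passed without sh2 replicates 1, 2 and 3. Without shNC replicates 1, 2 and 3, 166 of 13491, 56 of 13511 and 244 of 13488 passed.

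Members differed in how sh2 replicate 1 compared with the other sh2 libraries. In that library GDF15 was at 2.04 times and INHBB at 1.56 times the mean of the other sh2 libraries, and INHBE at 0.523, INHBA at 0.665, BMP1 at 0.691 and BMP2 at 0.747 times. TGFB1, TGFB2 and BMP4 were between 0.842 and 1.12 times, and TGFB3, whose level was below 1 FPKM in each library, at 0.741 times. Stress genes also differed between sh2 replicate 1 and the other sh2 libraries, in both directions, as the plot of GDF15, INHBE and the stress genes by library shows. Among 18 tested genes of the ATF4 and stress list, ASNS, which makes asparagine, was at 286 FPKM in sh2 replicate 1, 72.1 and 73.1 FPKM in sh2 replicates 2 and 3 and 84.0 to 90.2 FPKM in shNC libraries. The serine synthesis gene PSAT1 was at 331 FPKM in sh2 replicate 1, 105 and 90.2 FPKM in the other sh2 libraries and 132 to 160 FPKM in shNC libraries. The secreted glycoprotein gene STC2 was at 12.4, 3.49 and 2.67 FPKM in sh2 and 2.42 to 3.37 FPKM in shNC libraries; these 3 genes were chosen after their values were seen. In the other direction, ATF3, a transcription factor gene of the stress response, was at 17.0 FPKM in sh2 replicate 1 and 50.3 and 65.5 FPKM in sh2 replicates 2 and 3, against 6.05 to 11.1 FPKM in shNC libraries. ATF4 itself was at 361 FPKM in sh2 replicate 1 and 455 and 501 FPKM in sh2 replicates 2 and 3. In shNC libraries ATF4 was at 341 to 379 FPKM. GDF15 was above shNC in all 3 sh2 libraries, as was ATF3, while ASNS was above shNC in sh2 replicate 1 alone. The part of these genes in the level of GDF15 was not tested.

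**Figure D3:**
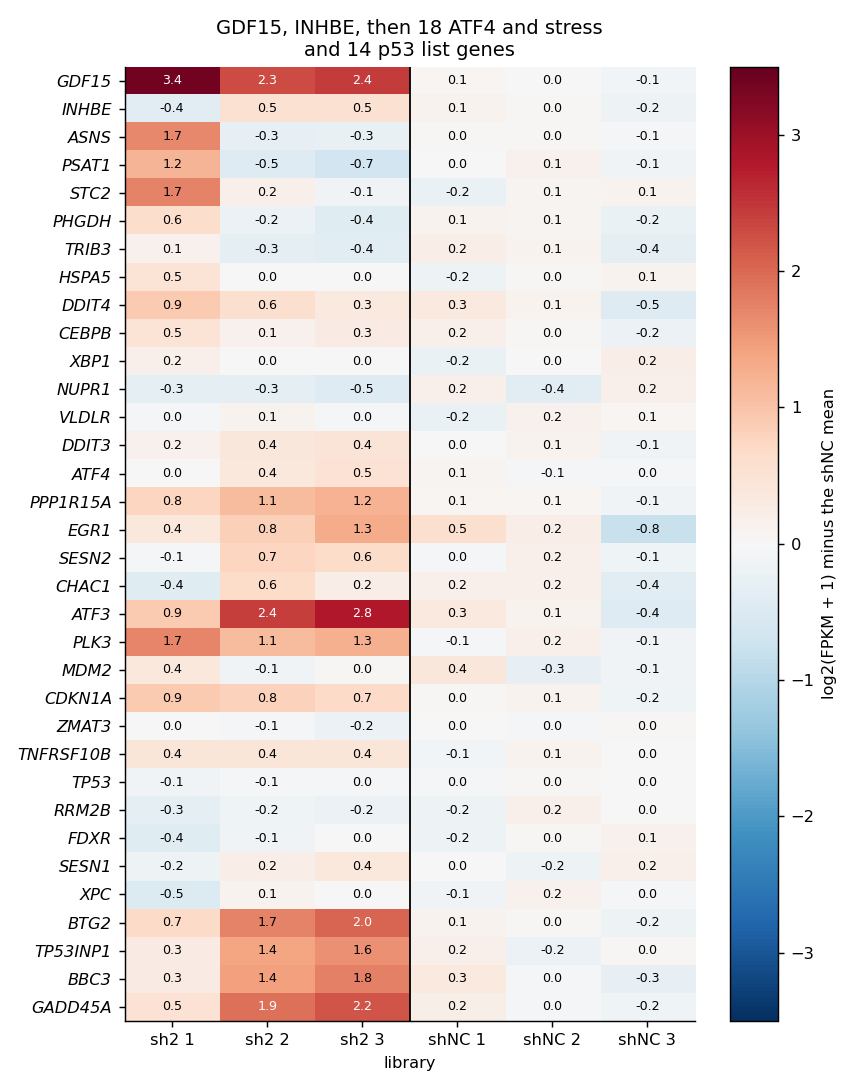
log2(FPKM + 1) minus the shNC mean in each library for GDF15 and INHBE, then for the 18 tested genes of the ATF4 and stress list and the 14 of the p53 list, each list ordered by how far sh2 replicate 1 lies above the other sh2 libraries. ASNS, PSAT1 and STC2 are high in sh2 replicate 1 alone, ATF3, GADD45A and BTG2 are highest in sh2 replicates 2 and 3, and GDF15 is high in all 3.

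Of the ATF4 and stress genes, 2 of 18 rose and 0 fell, with a median log2 fold change of 0.30 against -0.03 over all genes tested. Over all genes tested 4.15% rose and 3.94% fell (8.08% in all), the shares to set beside this and each later list count with all libraries. PPP1R15A, the stress-induced phosphatase subunit GADD34, was at 82.0 ± 13.3 FPKM in sh2 and 39.2 ± 3.09 FPKM in shNC cells (SD, n = 3 each; log2 fold change 1.04, SE 0.14, limma adjusted p = 0.0105), and ATF3 rose by 2.04 (adjusted p = 0.0422). ATF4 itself (0.29, adjusted p = 0.191), DDIT3 (0.33), DDIT4 (0.60), EGR1 (0.84) and TRIB3 (-0.19) did not pass. FGF21, another stress-induced secreted factor of liver, was at 0.55 FPKM or less in each library. Of 14 p53 and target genes, 3 rose and 0 fell (median 0.28). PLK3, a stress kinase gene, was at 11.7 ± 2.87 FPKM in sh2 and 3.91 ± 0.59 FPKM in shNC cells (SD, n = 3 each; 1.36, adjusted p = 0.0103), the antiproliferative gene BTG2 rose by 1.48 and the CDK inhibitor gene CDKN1A by 0.79. GADD45A (1.55, adjusted p = 0.0529) and TNFRSF10B (0.42, adjusted p = 0.0529) did not pass, nor did MDM2 (0.10). The counts of genes called in the ATF4 and p53 lists were 6 and 7 without sh2 replicate 1, 1 and 1 without sh2 replicate 2 or 3 or shNC replicate 1 or 3, and 0 and 1 without shNC replicate 2. Calls over all genes tested moved in the same way, with 3284 of 13408 without sh2 replicate 1 and 56 of 13511 without shNC replicate 2. These whole-table counts, given above for each library left out, belong beside this and each later count with a library left out.

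Likeness of a gene to GDF15 was measured as the root mean square difference, over the 6 libraries, of log2(FPKM + 1) minus the shNC mean. The 8 genes with the smallest difference from GDF15 were NNMT (0.40), MAFF (0.49), AREGB (0.56), SLPI (0.60), COL11A1 (0.63), CEACAM7 (0.63), TMSB4X (0.65) and LIF (0.72), in log2 units. NNMT, which encodes nicotinamide N-methyltransferase, had 67.8, 20.3 and 24.0 FPKM in sh2 and 4.09, 7.04 and 6.17 FPKM in shNC libraries. Like GDF15 it was far higher in sh2 replicate 1 than in the other sh2 libraries. So was CEACAM7, an adhesion molecule gene, with 5.36, 2.54 and 2.91 FPKM in sh2 and 0.48, 0.19 and 0.14 FPKM in shNC libraries. TMSB4X, a thymosin gene of the actin cytoskeleton, was instead lowest in replicate 1 within sh2, with 436, 504 and 545 FPKM in sh2 and 139, 111 and 116 FPKM in shNC libraries. LIF encodes a cytokine of the interleukin 6 family and SLPI a secreted protease inhibitor. Reads of AREGB could equally come from AREG, the amphiregulin gene it duplicates, so its value is uncertain.

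**Figure D4:**
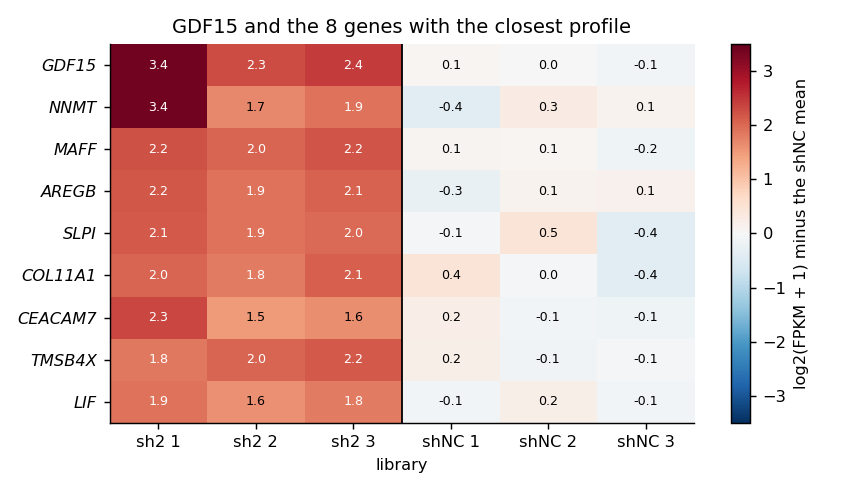
log2(FPKM + 1) minus the shNC mean in each library for GDF15 and the 8 genes with the closest profile. In sh2 replicate 1 GDF15, NNMT and CEACAM7 lie well above their level in the other sh2 libraries, and the other 6 genes differ less between the sh2 libraries.

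Of the family's other ligands, 17 of 24 searched had a row and 3 were tested. AMH, the anti-Müllerian hormone gene, was at 13.7, 18.8 and 18.5 FPKM in sh2 and 7.37, 8.37 and 7.40 FPKM in shNC libraries and rose (log2 fold change 1.04, SE 0.15, limma adjusted p = 0.0128). GDF11 was at 1.15, 1.24 and 0.99 FPKM in sh2 and 2.19, 2.42 and 1.95 FPKM in shNC libraries and did not pass (-0.58, adjusted p = 0.0618). BMP8B (0.35) did not pass either, and its reads may be shared with its near-identical neighbour BMP8A. INHBC, the neighbour of INHBE, was at 0.12 to 0.29 FPKM in sh2 and 0.29 to 0.37 FPKM in shNC libraries. The other ligand genes outside the members were at most at 1.38 FPKM, the level of INHA in sh2 replicate 3. The AMH call was lost without sh2 replicate 2, shNC replicate 1 or shNC replicate 2.

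On the receptor side, 1 of 11 tested genes rose and 0 fell (median 0.08). TGFBR1, the type I receptor of TGF-beta, was at 13.7 ± 0.84 FPKM in sh2 and 8.43 ± 0.62 FPKM in shNC cells (SD, n = 3 each; log2 fold change 0.64, SE 0.13, limma adjusted p = 0.0248). The type II receptor gene TGFBR2 was at 31.7 to 44.1 FPKM in sh2 and 31.8 to 47.1 FPKM in shNC libraries. The activin receptor gene ACVR2B (0.44, adjusted p = 0.0991) and the BMP co-receptor gene HFE2 (-0.76, adjusted p = 0.0752) did not pass. GFRAL, the receptor of GDF15, had no row and was not analysed here, and its partner RET was at 0.02, 0.17 and 0 FPKM in sh2 and listed at 0 in shNC libraries. Of 11 SMAD genes and regulators 1 rose and 1 fell (median 0.01). SMAD3, which carries TGF-beta and activin signals, was at 15.1 ± 1.64 FPKM in sh2 and 10.1 ± 0.29 FPKM in shNC cells (SD, n = 3 each; 0.53, adjusted p = 0.0435). SMAD6, an inhibitor of BMP signalling that BMPs induce, was at 12.3, 13.6 and 13.6 FPKM in sh2 and 41.3, 24.2 and 22.5 FPKM in shNC libraries (-1.05, adjusted p = 0.0279). SMAD2 (-0.29), SMAD5 (0.26) and SMAD7 (0.02) did not pass. The TGFBR1 call was lost without any library other than sh2 replicate 1, and the SMAD count was 3, 0 and 0 without sh2 replicates 1, 2 and 3 and 1, 0 and 1 without shNC replicates 1, 2 and 3.

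Among 8 tested antagonists 1 rose and 0 fell (median 0.46). FSTL3, which binds activins and GDF11, was at 25.2, 41.4 and 41.3 FPKM in sh2 and 14.8, 15.7 and 13.3 FPKM in shNC libraries (log2 fold change 1.21, SE 0.19, limma adjusted p = 0.0154). CHRD, the chordin gene and a BMP1 substrate, was at 10.3 ± 2.91 FPKM in sh2 and 5.97 ± 0.95 FPKM in shNC cells (SD, n = 3 each) and did not pass (0.67, adjusted p = 0.0826), nor did the pseudoreceptor gene BAMBI (0.67) or FST (0.41). Of 11 convertases and latency proteins 2 rose and 0 fell (median 0.27). LTBP4 and LTBP3, which tether latent TGF-beta to the matrix, were at 6.34 ± 0.22 and 41.5 ± 5.75 FPKM in sh2 and 2.32 ± 0.78 and 26.2 ± 3.04 FPKM in shNC cells (SD, n = 3 each; 1.17 and 0.64, adjusted p = 0.0154 and 0.0347). The convertase gene PCSK6 (-0.52, adjusted p = 0.0692), THBS1, whose product can activate latent TGF-beta (0.63), and FURIN (0.22) did not pass. The count of antagonists called was 3, 0 and 1 without sh2 replicates 1, 2 and 3 and 0 without any of the shNC libraries, and that of convertases and latency proteins 4, 0 and 1, then 1, 0 and 1 without shNC replicates 1, 2 and 3.

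Of 17 tested TGF-beta and activin target genes 9 rose and 0 fell, with a median of 0.68 against -0.03 over all genes tested. LMCD1, a LIM domain gene, was at 52.4, 48.9 and 48.7 FPKM in sh2 and 25.4, 26.2 and 25.7 FPKM in shNC libraries (log2 fold change 0.93, SE 0.10, limma adjusted p = 0.00702). The CDK inhibitor gene CDKN2B rose by 1.48, the docking protein gene NEDD9 by 1.21, JUNB by 1.59, the SMAD corepressor gene TGIF1 by 0.95 and BHLHE40 by 1.39. CTGF, a matricellular gene, was at 288, 190 and 160 FPKM in sh2 and 276, 313 and 285 FPKM in shNC libraries and did not pass (-0.49, adjusted p = 0.141), nor did TAGLN (1.15). Many of these genes also respond to other stimuli, and transcript levels do not measure SMAD activity. The count called was 11, 4 and 6 without sh2 replicates 1, 2 and 3 and 5, 2 and 6 without shNC replicates 1, 2 and 3, and without sh2 replicate 1 it held 1 gene that fell.

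Of 6 tested BMP target genes 0 rose and 1 fell, with a median of -0.44; each had a log2 fold change below 0, but quantile normalization left 1 of them above 0 and the rescaling 2. ATOH8, a transcription factor gene of the BMP and iron pathway of liver, was at 1.85, 1.32 and 0.67 FPKM in sh2 and 6.30, 4.16 and 4.66 FPKM in shNC libraries (log2 fold change -1.42, SE 0.23, limma adjusted p = 0.0159). ID3 was at 172 ± 25.1 FPKM in sh2 and 268 ± 60.8 FPKM in shNC cells and ID1 at 1007 ± 227 FPKM and 1381 ± 136 FPKM (SD, n = 3 each), and neither passed (-0.62 and -0.47, adjusted p = 0.0626 and 0.101). The count was 3, 0 and 1 without sh2 replicates 1, 2 and 3, 0, 0 and 1 without shNC replicates 1, 2 and 3, and 3 with the replicate number as a block. Of 11 tested relatives, enhancers and substrates of BMP1, 3 rose and 0 fell (median 0.47), all collagen genes: COL11A1 (1.98), COL1A2 (1.38) and COL1A1 (0.76). The enhancer gene PCOLCE (0.76) and COL5A2 (0.47) did not pass. The count was 6 without sh2 replicate 1 and 2 without any other library.

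**Figure D5:**
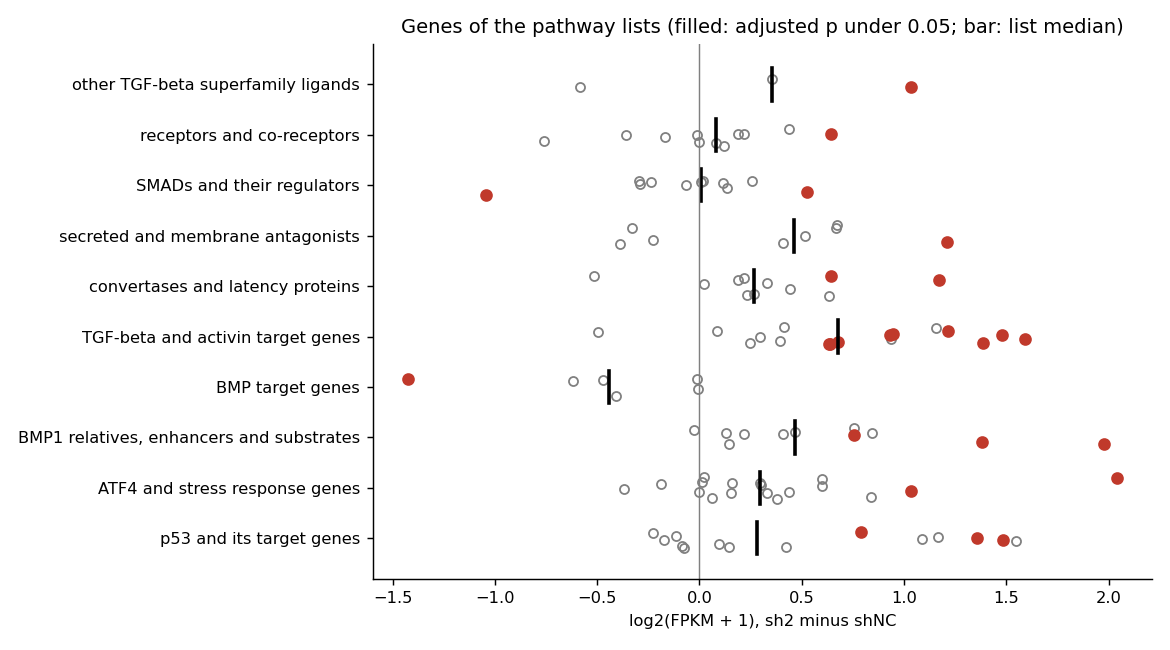
log2 fold change, sh2 over shNC, of each tested gene in 10 lists around the ligands; filled points passed a limma adjusted p of 0.05, open points did not, and the bar is the list median. The TGF-beta and activin target list has 9 filled points, all above 0 (median 0.68), and the BMP target list has 1, below 0 (median -0.44).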

How the data were processed

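The authors deposited 1 table of 23344 human Ensembl genes with symbols and 1 column for each of 6 Huh7 libraries (3 sh2, 3 shNC, grouped by their titles). Its values were treated as FPKM made by the authors, since they are not whole numbers and the smallest steps between them shrink with transcript length; TPM of an incomplete gene set is possible. The submitters' processing notes list RSEM 1.1.17, Bowtie2 2.2.6, Trimmomatic 0.36, bcl2fastq 2.19.0, DESeq2 1.16.1, edgeR 3.18.1 and the mouse build mm10, with no roles; the IDs are human, so no coordinates of the files are given. Low values of genes with a single GENCODE 29 transcript of 1000 to 2000 bases gave the worth of 1 fragment. It was 0.0701 to 0.0858 FPKM for a transcript of 1 kilobase, and less for a longer one.

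Genes at 1 FPKM or more in at least 3 libraries (13696) were tested on log2(FPKM + 1) with limma 3.58.1 in R 4.3.3 (mean-variance trend, robust, two-sided, Benjamini-Hochberg over all genes tested). A fold change on this scale understates that of low genes. "Rose" and "fell" mean an adjusted p below 0.05. With 3 libraries against 3 an exact permutation p cannot go below 0.1, so the calls rest on limma's shared prior. Simulated data had 13696 genes, with changes planted on the log2(FPKM + 1) scale in genes with a mean of at least 3 on it. The test recovered 25.4% of 1.5-fold, 70.6% of 2-fold and 95.6% of 4-fold changes. A gene with a change under 2-fold that did not pass may thus have been missed. Recovery in genes below that mean was not measured. The simulated data had far fewer changed genes than the 1107 called in the real data. Their noise was drawn for each gene on its own, with no shift shared across a library. Recovery in the real data may therefore differ. The members, lists and tests were chosen with earlier results of these data known. Named genes are the members, 18 fixed genes (of which 1 is not reported here), up to 6 genes that passed and 2 that did not in each list, and the 8 nearest to GDF15. ASNS, PSAT1, STC2, INHBC and INHA were named after their values were seen. Tried as alternatives (11) were quantile normalization, a pseudocount of 0.1, testing unfiltered genes, rescaling without mitochondrially encoded genes, a replicate block and omission of each library in turn. A planned comparison of the proteins was not made, as no protein sequences were used here.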

Additional observations from a re-analysis of the deposited data

How the results depend on the processing

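The log2 differences of the 9 members tested kept their sign in all 11 alternatives, which the choice of the members favours, and rescaling brought BMP4 to -0.59. The genes called over the whole table, 1107 with all libraries, were 221 without the filter on low values and 56 to 3284 when a library was left out (1066 with the smaller pseudocount, 994 with quantile normalization, 903 rescaled, of which 680 were higher and 223 lower). Without the filter, the lists held 0 calls among receptors, SMADs, antagonists and BMP targets, 1 each among convertases and latency proteins, ATF4 genes and p53 genes, and 5 among TGF-beta and activin targets. Quantile normalization gave 2 among the other ligands. The replicate numbers were not taken as pairs, and a fit with a replicate block is given as an alternative. Same-numbered libraries correlated at 0.053, 0.105 and 0.135 in their deviations, and differently numbered libraries at -0.210 to 0.094. Sh2 replicates 2 and 3 correlated best with the shNC library of their own number, and sh2 replicate 1 with shNC replicate 2 (0.094). These values do not settle whether the numbers mark pairs. The replicate block gave 861 genes, with 1 call each among SMADs, convertases and latency proteins and ATF4 genes, and 3 among BMP targets. With 1 library left out, the calls ranged over 2 to 7 for members, 0 to 2 for other ligands, 0 to 1 for receptors, 0 to 3 for SMADs, antagonists and BMP targets, 0 to 4 for convertases and latency proteins, 2 to 11 for TGF-beta and activin targets, 2 to 6 for BMP1 relatives and substrates, 0 to 6 for ATF4 genes and 1 to 7 for p53 genes. Most of these counts thus depend on single libraries; the cause was not tested. VCAN ranged over -1.56 to -1.23. Of genes that did not pass, TGFBR2 turned sign (-0.12 to 0.15), as did FST (-0.13 to 0.74), SMAD7 (-0.013 to 0.059) and MDM2 (-0.048 to 0.293). Intervals of the reads cannot be given, as the deposited values are not counts, and TGFB3 and the other genes near 0 are limited by depth.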
